A study of Mus musculus with 6 samples.

Results

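The C-type lectin family, with the receptors of the natural killer (NK) gene complex, was compared between MLL-AF9 leukaemia cells that started from LSK cells and those that started from granulocyte-macrophage progenitors (GMP). The members were chosen by gene symbol, as every row of the count table whose symbol begins with Klr and a letter from a to k, or with Clec and a digit. This gave 64 of the 33924 rows, 31 with Klr symbols and 33 with Clec symbols. No measured value entered the choice of rows. The family itself was put forward with results of the LSK against GMP comparison known, so counts of members and their fold changes are a description here and support nothing about the family as a whole.

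The LSK-derived group held 3 libraries of mouse acute myeloid leukaemia cells made from LSK cells, the lineage-negative, Sca-1-positive, Kit-positive bone marrow cells that include stem cells. The GMP-derived group held 3 libraries made from GMP, the committed precursors of granulocytes and monocytes. All 6 libraries carried the retroviral MLL-AF9 oncogene, a fusion gene of human leukaemia, and all shared the same history. GFP-positive transformed cells had been given to lethally irradiated mice of the same strain (C57BL/6) together with wild-type marrow, and the leukaemia cells taken from the marrow of dying animals were then cultured with SCF, IL-3 and IL-6. Libraries are called here by the number in their titles, LSK 44, LSK 45 and LSK 46 and GMP 5, GMP 11 and GMP 19. Nothing in the labels tells if libraries of one group stem from separate transductions, clones or mice, so p-values measure the spread between these libraries only, which may be technical. No untransformed cells were in the comparison.

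C-type lectin receptors share a folded domain that in some members binds sugars and in others binds proteins or lipids. On myeloid cells, members such as Dectin-1 and Mincle recognise fungal and mycobacterial products and signal through Syk, either directly or through the adaptors FcRγ and DAP12, while others carry an inhibitory motif that recruits phosphatases. The NK gene complex, a stretch of mouse chromosome 6, holds the Ly49 (Klra), NKR-P1 (Klrb), NKG2 (Klrc, Klrk) and Clr (Clec2) genes, by which NK cells read MHC class I and related ligands on other cells. Mouse Ly49 and NKR-P1 genes arose by repeated duplication, and several are near-identical.

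Total counts per library ran from 16640929 in LSK 44 to 33885428 in GMP 11. A count of 0 allows up to 3 counts, which is 0.180 CPM (read counts scaled to a library total of 1e6) in LSK 44 and 0.0885 CPM in GMP 11. This limit, like the counting interval given further on, covers counting error only. Of the genes by which the starting cells are sorted, Kit averaged 193 ± 11.99 CPM in LSK-derived libraries and 115 ± 24.7 CPM in GMP-derived libraries (SD, n = 3 each). Ly6a, which encodes Sca-1, was low in both groups, at 1.83 ± 1.03 CPM in LSK-derived libraries and 0.255 ± 0.0840 CPM in GMP-derived libraries. Fcgr3, part of the GMP sorting marker, averaged 33.7 ± 14.1 CPM in LSK-derived libraries and 163 ± 11.2 CPM in GMP-derived libraries. Cd34, on which GMP are also sorted, did not pass the test, with 181 ± 17.7 CPM in LSK-derived libraries and 150 ± 108 CPM in GMP-derived libraries and an adjusted p of 0.714, and its GMP-derived libraries ran from 66.9 to 272 CPM.

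Of the 64 members, 23 had 0 counts in all 6 libraries, 10 had 1 to 9 counts in all and 31 had 10 or more. The Klr symbols made up 18 of the 23 members at 0. Of the members, 22 passed the filter on low counts and were tested, 16 Clec genes and 6 Klr genes. The threshold for a call was an adjusted p of 0.05 over all 13406 tested genes, by the quasi-likelihood test of edgeR. By that rule 6 members were higher in LSK-derived leukaemia, against 11.8% of all tested genes, and 3 were lower, against 13.9% of all tested genes. The 6 higher members were Clec10a, Clec12a, Clec2d, Clec2f-ps, Klrb1c and Klrb1f. The 3 lower members were Clec4d, Clec4e and Klra17. Tested against a minimum change of 1.5-fold, Clec10a, Clec2f-ps, Klrb1c and Clec4e still passed and the other 5 did not. Among the leave-one-out fits, the number of members called lower was 1 without LSK 44, LSK 46, GMP 11 or GMP 19, 4 without LSK 45 and 5 without GMP 5. The 3 libraries of one group lay wholly above those of the other for 12 of the 22 members, against 45.4% of all tested genes. The median log2 fold change, LSK-derived over GMP-derived, was 0.04 over the 22 members and 0.01 over all tested genes. Klrb1c, Clec2f-ps and Klra17 passed the filter only through the group in which they were high. Counts of calls that include them are thus a description and no support.

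**Figure D1:**
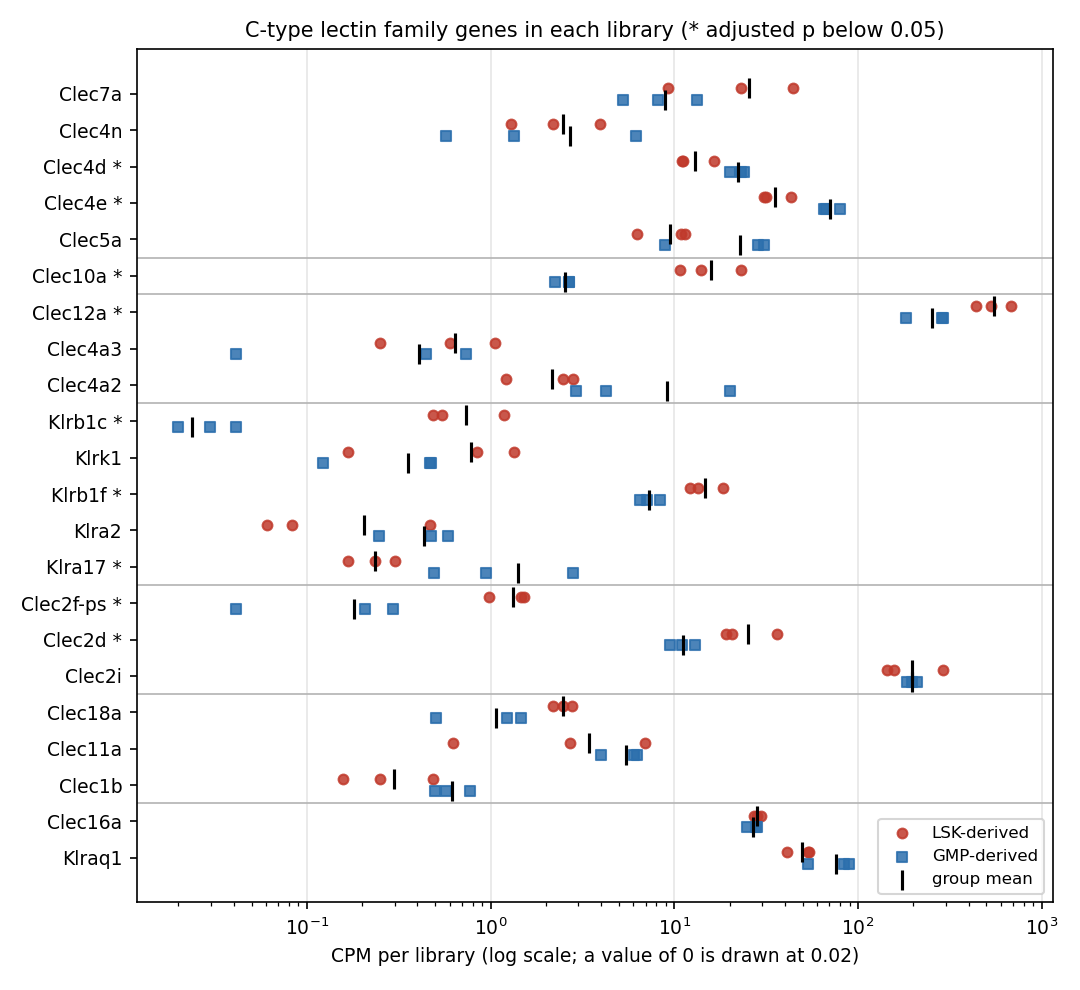
CPM of the 22 tested members on a log axis, with LSK-derived libraries as red circles, GMP-derived libraries as blue squares and the group mean as a black tick; lines separate the classes of receptor. Clec12a and Clec2i stand above 100 CPM in every library, and the Klr genes other than Klrb1f and Klraq1 stand below 3 CPM.

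Among the receptors that signal through Syk, the neighbours Clec4e and Clec4d were lower in LSK-derived leukaemia. Clec4e encodes Mincle, a receptor for mycobacterial glycolipids, and had 30.8, 43.2 and 31.5 CPM across LSK 44, LSK 45 and LSK 46, against 79.9, 66.8 and 65.7 CPM in GMP 5, GMP 11 and GMP 19. The highest LSK-derived library stayed below the lowest GMP-derived one. Its log2 fold change was -1.01 ± 0.15 (approximate SE from the test, n = 3 each), with an adjusted p of 0.00511. Clec4d encodes MCL, a receptor of the same ligands that pairs with Mincle. It had 11.1, 16.5 and 11.1 CPM across LSK 44, LSK 45 and LSK 46, against 20.2, 23.8 and 23.01 CPM in GMP 5, GMP 11 and GMP 19. Its log2 fold change was -0.79 ± 0.18 with an adjusted p of 0.0201, and for both genes LSK 45 was the highest library of its group without reaching the GMP-derived values. The Clec4d call was lost without LSK 44, LSK 46, GMP 11 or GMP 19, and over all alternatives its adjusted p ran from 9.86e-04 to 0.348. The Clec4e call held in each alternative run, with adjusted p values from 4.39e-08 to 0.0495. In bulk RNA, fewer cells that express a gene and less of its RNA per cell cannot be told apart, here and for every member.

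Clec4d and Clec4e lie next to each other on chromosome 6 in opposite orientation, and their promoters are shown because both genes were lower in LSK-derived leukaemia. The sequences are from RefSeq on GRCm38.p6, 250 bases before to 50 bases after the gene start, read 5′ to 3′ on the gene's strand. Capitals mark matches on either strand to the letters of 5 motifs of blood cell transcription factors. The letters searched for PU.1, a factor of myeloid cells, were GAGGAA. Those for the C/EBP factors of granulocytes and monocytes were TTGCNNAA. The RUNX factors were searched as TGTGGT and the GATA factors of other blood lineages as AGATAA. For AP-1, the Fos and Jun dimer, the letters TGANTCA were searched, and no matches overlap in the windows printed here.
Clec4d promoter, chr6:123261857-123262156, plus strand: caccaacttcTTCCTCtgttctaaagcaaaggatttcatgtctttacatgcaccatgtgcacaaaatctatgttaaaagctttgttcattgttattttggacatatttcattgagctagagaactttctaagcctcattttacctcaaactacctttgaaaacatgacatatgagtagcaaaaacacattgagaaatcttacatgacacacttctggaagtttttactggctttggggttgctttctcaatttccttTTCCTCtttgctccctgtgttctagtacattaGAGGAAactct
Clec4e promoter, chr6:123289822-123290121, minus strand: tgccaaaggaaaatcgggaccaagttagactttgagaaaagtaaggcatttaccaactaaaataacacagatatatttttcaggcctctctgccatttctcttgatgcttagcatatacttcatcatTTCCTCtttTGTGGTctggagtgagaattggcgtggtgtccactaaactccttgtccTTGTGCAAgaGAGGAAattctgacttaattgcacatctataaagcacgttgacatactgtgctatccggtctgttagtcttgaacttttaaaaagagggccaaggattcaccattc
The Clec4d window held 3 matches to the PU.1 letters and none to the other motifs. The Clec4e window held 2 PU.1 matches, 1 C/EBP match and 1 RUNX match.

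The other 3 Syk-coupled receptors did not pass the test. Clec7a, which encodes the β-glucan receptor Dectin-1, had 22.99, 44.4 and 9.21 CPM across LSK 44, LSK 45 and LSK 46, against 5.25, 8.13 and 13.4 CPM in GMP 5, GMP 11 and GMP 19. The groups overlapped, because LSK 46 lay below GMP 19, and the log2 fold change of 1.51 ± 0.60 had an adjusted p of 0.115. DESeq2 called it, with the smallest adjusted p of its alternatives, 0.0162, and the largest was 0.412. Without LSK 45 the log2 fold change was 0.84. Clec5a encodes MDL-1, which pairs with DAP12, and had 11.4, 10.8 and 6.29 CPM across LSK 44, LSK 45 and LSK 46, against 8.89, 30.7 and 28.7 CPM in GMP 5, GMP 11 and GMP 19. GMP 5 lay within the LSK-derived range and the other GMP-derived libraries well above it. The log2 fold change of Clec5a was -1.26 ± 0.49 with an adjusted p of 0.105. It was called without GMP 5 and by DESeq2, and its adjusted p over the alternatives ran from 0.00952 to 0.434. Clec4n, which encodes the mannan receptor Dectin-2, ranged from 1.29 to 3.96 CPM in LSK-derived libraries and from 0.574 to 6.22 CPM in GMP-derived libraries. Its log2 fold change of -0.14 changed sign to 1.36 without GMP 19, and was positive without LSK 46 as well, at 0.18.

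Markers of other myeloid cells were set beside these receptors. The 8 macrophage markers summed to 19.9 to 69.4 CPM in LSK-derived libraries and 46.1 to 164 CPM in GMP-derived libraries, with none at 0 counts in all libraries and Mertk called higher among the 4 tested. The 7 neutrophil markers summed to 50.2 to 181 CPM in LSK-derived libraries and 13.3 to 384 CPM in GMP-derived libraries, with Ly6g called higher and Ngp lower among the 5 tested. For both lists the ranges of the groups overlapped. Their part in the Clec4d and Clec4e differences was not tested.

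Clec10a encodes MGL1, a receptor for galactose-type sugars found on macrophages and dendritic cells, and was higher in LSK-derived leukaemia. It had 13.9, 10.8 and 23.1 CPM across LSK 44, LSK 45 and LSK 46, against 2.66, 2.26 and 2.67 CPM in GMP 5, GMP 11 and GMP 19. All LSK-derived libraries lay far above the GMP-derived ones, which were nearly level among themselves. The difference was 6.29-fold, a log2 fold change of 2.65 ± 0.30 with an adjusted p of 0.00194, and it was called in each alternative run, with adjusted p values from 3.60e-14 to 0.0102. Of the 50-base stretches of its transcripts, 9.02% occur in another gene, chiefly in Mgl2, its closest relative. Mgl2, which the symbol rule leaves out, had 32.7 ± 27.3 CPM in LSK-derived libraries and 58.8 ± 54.1 CPM in GMP-derived libraries, with a log2 fold change of -0.85 and an adjusted p of 0.558. The 9 dendritic cell markers summed to 67.7 to 97.7 CPM in LSK-derived libraries and 10.9 to 35.0 CPM in GMP-derived libraries, with Flt3, H2-Aa and Ccr7 called higher among the 6 tested and Batf3 at 0 counts. Those ranges did not overlap. Within the LSK-derived group the order was the reverse of that of Clec10a, with sums of 82.8, 97.7 and 67.7 CPM across LSK 44, LSK 45 and LSK 46. Flt3 was the largest part of the sum in every library. It averaged 48.4 ± 9.02 CPM in LSK-derived libraries and 13.0 ± 5.76 CPM in GMP-derived libraries. Zbtb46 and Xcr1, with 14 and 28 counts, were too low to test. The part of these markers in the Clec10a difference was not tested.

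The inhibitory receptor gene Clec12a had the highest CPM per kilobase of exon of all tested members in every LSK-derived library, and was higher in LSK-derived leukaemia. It encodes MICL, whose human counterpart CLEC12A is a surface antigen of acute myeloid leukaemia cells. Clec12a had 531, 683 and 439 CPM across LSK 44, LSK 45 and LSK 46, against 182, 287 and 290 CPM in GMP 5, GMP 11 and GMP 19. The lowest LSK-derived library, LSK 46, lay above the highest GMP-derived one. The difference was 2.18-fold, a log2 fold change of 1.12 ± 0.23 with an adjusted p of 0.0175. The call was lost without LSK 44, at an adjusted p of 0.0555, and the adjusted p over all alternatives ran from 2.89e-06 to 0.107.

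Clec12a carried much of the family's signal, which is why its promoter is shown, with the same marking as above.
Clec12a promoter, chr6:129349994-129350293, plus strand: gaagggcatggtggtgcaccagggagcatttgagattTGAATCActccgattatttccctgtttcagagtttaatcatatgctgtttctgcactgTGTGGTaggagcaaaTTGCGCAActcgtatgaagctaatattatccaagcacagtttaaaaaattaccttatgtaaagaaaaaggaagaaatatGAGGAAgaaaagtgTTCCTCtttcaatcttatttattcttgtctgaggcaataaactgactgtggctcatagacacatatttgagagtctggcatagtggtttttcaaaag
The window held 2 PU.1 matches and 1 match each to the C/EBP, RUNX and AP-1 letters. Clec12a made up 59.2%, 54.5% and 55.0% of the summed CPM of all members in LSK 44, LSK 45 and LSK 46, against 30.8%, 37.7% and 35.8% in GMP 5, GMP 11 and GMP 19. The summed CPM of all members was 896, 1253 and 799 in LSK 44, LSK 45 and LSK 46, against 591, 763 and 811 in GMP 5, GMP 11 and GMP 19. Without Clec12a the sums were 365, 570 and 360 CPM in the LSK-derived libraries, against 409, 476 and 521 CPM in the GMP-derived libraries. With Clec12a taken out, LSK 45 was the highest and the other LSK-derived libraries were the lowest of the 6.

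Clec4a2, another inhibitory myeloid receptor gene, and its relative Clec4a3 did not pass the test. Clec4a2 encodes DCIR and had 2.48, 2.83 and 1.21 CPM across LSK 44, LSK 45 and LSK 46, against 2.91, 4.24 and 20.2 CPM in GMP 5, GMP 11 and GMP 19. GMP 19 stood far above the other libraries, and GMP 5 only just above LSK 45. The log2 fold change was -2.08 ± 0.81 with an adjusted p of 0.108, and over the alternatives that p ran from 0.0144 with DESeq2 to 0.341. Without GMP 19 the log2 fold change was -0.72. Of its 50-base transcript stretches, 6.83% occur in another gene, chiefly Clec4a4. Clec4a3 stayed at or below 1.06 CPM in every library, with a log2 fold change of 0.60 that became -0.04 without LSK 45.

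The Clec2 genes encode the Clr proteins, ligands for NKR-P1 receptors, and 2 of the 3 tested were higher in LSK-derived leukaemia, against 11.8% of all tested genes. Of these, Clec2f-ps passed the filter only through the LSK-derived libraries. Clec2d encodes Clr-b, the ligand of the inhibitory receptor NKR-P1B, and had 20.6, 36.4 and 19.1 CPM across LSK 44, LSK 45 and LSK 46, against 9.47, 11.04 and 13.0 CPM in GMP 5, GMP 11 and GMP 19. Each LSK-derived library lay above each GMP-derived one, LSK 45 by the most. The log2 fold change was 1.18 ± 0.27 with an adjusted p of 0.0220. The call was lost without GMP 5, at an adjusted p of 0.0587, and without GMP 11, at 0.0674, and the range over all alternatives was 2.89e-04 to 0.122. Clec2f-ps, which RefSeq now lists as the protein-coding gene Clec2f, had 1.51, 0.981 and 1.46 CPM across LSK 44, LSK 45 and LSK 46, against 0.0410, 0.208 and 0.293 CPM in GMP 5, GMP 11 and GMP 19. It had 1, 7 and 10 counts in GMP 5, GMP 11 and GMP 19, so only GMP 5 lay below the limit of 3 counts. The log2 fold change of Clec2f-ps was 2.76 ± 0.51 with an adjusted p of 0.0101.

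Clec2i encodes Clr-g and was as abundant in LSK-derived as in GMP-derived libraries on average. It had 144, 290 and 158 CPM across LSK 44, LSK 45 and LSK 46, against 184, 196 and 210 CPM in GMP 5, GMP 11 and GMP 19. LSK 45 was the highest of all 6 libraries and the other LSK-derived libraries were the lowest. The log2 fold change was 0.01 ± 0.27 with an adjusted p of 0.986. Without LSK 45 it was -0.38 with an adjusted p of 0.0338, the smallest of its alternatives, of which the largest was 1.0.

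Clec2d and Clec2i are relatives whose reads can still mostly be told apart. Of the 50-base stretches, 1.98% of those of Clec2d and 4.13% of those of Clec2i occur in another gene. The stretch around their longest common coding run, 58 bases, is shown on the coding strand of both genes, from the GENCODE M21 transcripts, as 88 bases with the 4 differences in capitals.
Clec2d: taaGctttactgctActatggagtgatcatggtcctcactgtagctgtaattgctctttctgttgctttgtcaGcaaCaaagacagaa
Clec2i: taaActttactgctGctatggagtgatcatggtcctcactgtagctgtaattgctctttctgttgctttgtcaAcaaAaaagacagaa
These are coding bases 120 to 207 of 621 in Clec2d and 243 to 330 of 738 in Clec2i. A read that spans any of the capitals differs between the genes.

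Of the NK complex receptors with Klr symbols, Klrb1f and Klrb1c were higher in LSK-derived leukaemia. Klrb1f encodes NKR-P1F, a receptor of Clr-g, and had 12.2, 18.5 and 13.5 CPM across LSK 44, LSK 45 and LSK 46, against 6.48, 8.37 and 7.10 CPM in GMP 5, GMP 11 and GMP 19. The groups did not overlap. The difference was 2.01-fold, a log2 fold change of 1.01 ± 0.19 with an adjusted p of 0.0118, and the range over the alternatives was 1.18e-04 to 0.101. None of the 50-base stretches of Klrb1f occur in another gene. Klrb1c encodes NKR-P1C, known as NK1.1, the activating receptor that marks NK cells of C57BL/6 mice. It had 51 counts over the LSK-derived libraries and 2 over the GMP-derived libraries, or 0.484, 1.18 and 0.541 CPM across LSK 44, LSK 45 and LSK 46, against 0.0410, 0.0297 and 0 CPM in GMP 5, GMP 11 and GMP 19. The ratio was 33.8, with a 95% counting interval of 9.37 to 279. The log2 fold change from the test was 4.83 ± 0.74 with an adjusted p of 0.00518. The level of Klrb1c was low even where it was highest.

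The promoters of Klrb1f and of Clec2d, close by, are shown because both genes of this cluster were higher in LSK-derived leukaemia. Their products are not a pair named here, since NKR-P1F is a receptor of Clr-g and Clr-b is the ligand of NKR-P1B. The marking is as above.
Klrb1f promoter, chr6:129045651-129045950, plus strand: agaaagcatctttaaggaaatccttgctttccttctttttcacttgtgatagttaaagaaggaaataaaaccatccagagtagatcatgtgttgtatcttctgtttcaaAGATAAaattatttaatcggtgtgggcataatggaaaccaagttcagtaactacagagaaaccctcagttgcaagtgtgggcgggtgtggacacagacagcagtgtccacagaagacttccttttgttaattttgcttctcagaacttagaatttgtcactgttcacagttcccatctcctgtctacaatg
Clec2d promoter, chr6:129180365-129180664, plus strand: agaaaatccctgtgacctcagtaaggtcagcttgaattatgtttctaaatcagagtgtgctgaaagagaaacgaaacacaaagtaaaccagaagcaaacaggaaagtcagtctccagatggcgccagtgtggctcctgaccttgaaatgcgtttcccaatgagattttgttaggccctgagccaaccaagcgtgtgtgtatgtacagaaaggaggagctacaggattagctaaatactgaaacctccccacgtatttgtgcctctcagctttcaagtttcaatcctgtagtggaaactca
The Klrb1f window held 1 GATA match and none to the other motifs, and the Clec2d window held none to any of the 5.

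Klrb1c shares sequence with a close copy, Klrb1a. Their proteins, translated from GENCODE M21, are 85.2% identical over 229 aligned residues. Counted over the longer protein, the identity is 72.0%. Of the 50-base stretches of Klrb1c, 16.98% occur in another gene, the highest share among the tested members, chiefly in Gm44511 and Klrb1a. Gm44511, a gene model that overlaps 413 exon bases of Klrb1c, has no row in the count table. Around the longest common coding run, 108 bases, the genes differ at the 4 capital bases of the 138 shown.
Klrb1c: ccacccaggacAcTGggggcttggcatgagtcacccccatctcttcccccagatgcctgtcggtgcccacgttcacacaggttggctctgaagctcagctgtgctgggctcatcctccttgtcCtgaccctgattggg
Klrb1a: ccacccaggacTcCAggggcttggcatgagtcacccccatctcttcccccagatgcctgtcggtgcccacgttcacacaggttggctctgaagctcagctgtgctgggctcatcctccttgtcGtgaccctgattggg
The stretch is coding bases 178 to 315 of 813 in Klrb1c and 52 to 189 of 699 in Klrb1a. Klrb1a had 0 counts in every library, so the 53 counts of the pair all stood under Klrb1c.

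Klra17 encodes Ly49Q, a Ly49 receptor known from plasmacytoid dendritic and myeloid cells rather than NK cells, and was lower in LSK-derived leukaemia. It had 0.302, 0.235 and 0.167 CPM across LSK 44, LSK 45 and LSK 46, against 0.492, 0.9499 and 2.81 CPM in GMP 5, GMP 11 and GMP 19. All LSK-derived libraries lay below all GMP-derived ones, and GMP 19 stood far above the rest. The log2 fold change was -2.62 ± 0.73 with an adjusted p of 0.0408, from 15 counts in LSK-derived libraries and 140 in GMP-derived libraries. Without LSK 44, LSK 45, LSK 46, GMP 11 or GMP 19 the call was lost, as it was with limma voom at an adjusted p of 0.0879, and the range over the alternatives was 0.0123 to 0.136. Without GMP 19 the log2 fold change was -1.65. The sum of the 7 neutrophil markers was also highest in GMP 19 and lowest in GMP 5 of that group. It was 117, 181 and 50.2 CPM across LSK 44, LSK 45 and LSK 46, against 13.3, 66.9 and 384 CPM in GMP 5, GMP 11 and GMP 19. Not every marker followed that order, and Ly6g was lowest in GMP 11, at 0.505 CPM. None of the other cell type lists had that order in the GMP-derived group. The macrophage markers summed to 164.5, 46.1 and 110.4 CPM in GMP 5, GMP 11 and GMP 19. The dendritic cell markers summed to 10.9, 35.0 and 30.4 CPM in the same libraries. The part of these markers in the Klra17 difference was not tested. None of the 50-base stretches of Klra17 occur in another gene.

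The remaining Klr receptors that were tested stayed low and did not pass the test. Klra2, which encodes the myeloid inhibitory receptor Ly49B, ranged from 0.0605 to 0.471 CPM in LSK-derived libraries and from 0.246 to 0.586 CPM in GMP-derived libraries. Klrk1, which encodes the activating receptor NKG2D, ranged from 0.167 to 1.33 CPM in LSK-derived libraries and from 0.123 to 0.475 CPM in GMP-derived libraries. Their adjusted p values were 0.337 for Klra2 and 0.327 for Klrk1. Without LSK 45, the log2 fold change of Klrk1 was 0.38 in place of 1.08, and that of Klra2 was -2.52 in place of -1.0. Klra2 was then called lower at an adjusted p of 0.0454, the smallest of its alternatives, of which the largest was 1.0.

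The defining markers of NK cells were at or near 0 in all libraries. Of 9 NK cell markers, Ncr1, Gzma and Xcl1 had 0 counts in all libraries, none passed the filter, and the sum was 0.423 to 0.667 CPM in LSK-derived libraries and 0.176 to 0.410 CPM in GMP-derived libraries. Klrb1c alone reached 1.18 CPM in LSK 45, where the 9 NK markers together had 0.432 CPM. Of 6 T cell markers, Cd3e and Trbc2 had 0 counts, and the sum was 0.314 to 2.08 CPM in LSK-derived libraries and 1.90 to 3.02 CPM in GMP-derived libraries. Most of that sum was Lat, an adaptor gene and the only T cell marker that was tested, with 1.13 ± 0.884 CPM in LSK-derived libraries and 2.33 ± 0.502 CPM in GMP-derived libraries and an adjusted p of 0.253.

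Among the tested members of other kinds, Clec11a encodes a secreted growth factor for haematopoietic and skeletal cells. It had 2.72, 0.628 and 6.96 CPM across LSK 44, LSK 45 and LSK 46, against 6.27, 6.06 and 4.02 CPM in GMP 5, GMP 11 and GMP 19. The LSK-derived libraries spread over 11.1-fold and enclosed the GMP-derived values. Its log2 fold change was -0.66 with an adjusted p of 0.548, and was -1.74 without LSK 46. Clec18a ranged from 2.18 to 2.79 CPM in LSK-derived libraries and from 0.505 to 1.47 CPM in GMP-derived libraries, without overlap, at an adjusted p of 0.0597. With limma voom it was called, at 0.0434, and with sample weights at 0.0161, the smallest of its alternatives, of which the largest was 0.283. Clec1b encodes CLEC-2, the podoplanin receptor of platelets, and ranged from 0.157 to 0.484 CPM in LSK-derived libraries and from 0.498 to 0.772 CPM in GMP-derived libraries, at an adjusted p of 0.110. The 8 megakaryocyte and platelet markers, none at 0 counts and with Itgb3 called lower among the 3 tested, summed to 16.9 to 99.1 CPM in LSK-derived libraries and 12.7 to 25.9 CPM in GMP-derived libraries.

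Clec16a and Klraq1 fit the symbol rule but are not C-type lectin receptors. Clec16a, an autophagy gene, had 28.1, 27.2 and 29.5 CPM across LSK 44, LSK 45 and LSK 46, against 25.0, 27.8 and 28.2 CPM in GMP 5, GMP 11 and GMP 19, with an adjusted p of 0.616. It was the steadiest of the tested members in the LSK-derived libraries, where the highest was 1.09-fold the lowest. Klraq1, which RefSeq lists on chromosome 17 as Ppp1r21, a phosphatase regulatory subunit gene, had 54.3, 53.5 and 41.0 CPM across LSK 44, LSK 45 and LSK 46, against 53.7, 84.1 and 89.8 CPM in GMP 5, GMP 11 and GMP 19. GMP 5 lay among the LSK-derived libraries, and the log2 fold change of -0.62 ± 0.21 had an adjusted p of 0.0774. It was called lower without GMP 5, with DESeq2 and with voom sample weights, and its adjusted p over the alternatives ran from 0.0114 to 0.996. With both genes left out, 6 members were higher and 3 lower, as before.

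**Figure D2:**
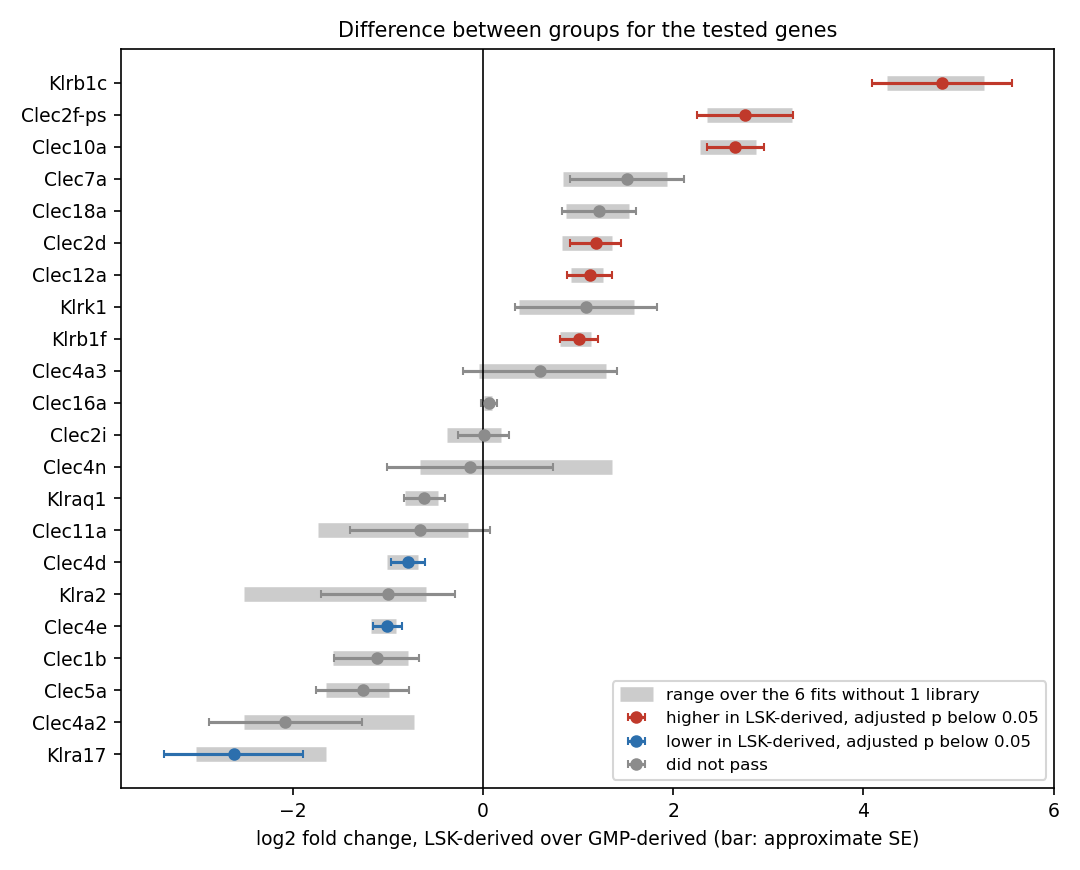
Log2 fold change of the 22 tested members, LSK-derived over GMP-derived, with the approximate SE as a line and the range over the 6 fits without 1 library as a grey band. The bands of Clec2i, Clec4a3 and Clec4n cross 0, while those of the 9 called members, in red where higher and in blue where lower, stay on 1 side of it.

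Levels of different genes were compared per kilobase of exon, from the merged GENCODE M21 exons, in CPM per kilobase. In LSK-derived libraries the order began with Clec12a at 99.7 ± 22.2, Clec2i at 63.5 ± 25.9, Clec2d at 20.9 ± 7.91, Klraq1 at 11.7 ± 1.75 and Clec7a at 9.68 ± 6.73 CPM per kilobase. In GMP-derived libraries it began with Clec2i at 63.2 ± 4.12, Clec12a at 45.8 ± 11.2, Klraq1 at 17.8 ± 4.56, Clec4e at 14.3 ± 1.59 and Clec4d at 13.97 ± 1.20 CPM per kilobase (SD, n = 3). Per length, Clec4e and Clec4d were thus close in both groups and did not differ beyond their spread. In LSK-derived libraries they had 7.09 ± 1.40 and 8.07 ± 1.96 CPM per kilobase. That closeness rests on merged exon lengths of 4965 bases for Clec4e and 1599 for Clec4d. In CPM, Clec4e was higher, at 35.2 against 12.9 in LSK-derived and 70.8 against 22.3 in GMP-derived libraries. Which of the exons were in use was not tested. Clec12a lay above Clec2i in each LSK-derived library, and LSK 45 was the highest of its group for both.

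On chromosome 6, where RefSeq places 55 of the 64 members, members were counted stretch by stretch in gene order. In the stretch Clec4a1 to Clec4e, 5 of 9 members were tested, 2 of them lower and none higher. From Klrb1a to Clec2d, 5 of 13 were tested, 4 of them higher and none lower. Klrb1c and Clec2f-ps, which are among these, passed the filter only through the LSK-derived libraries. From Clec12a to Clec7a, 3 of 6 were tested and 1 was higher. Over all tested genes 11.8% were higher and 13.9% lower, and whether the calls group by position was not tested. Beyond these, 6 of the 8 members from Klre1 to Klri2 and 8 of the 13 from Klra17 to Klra2 had 0 counts in all libraries. These 2 stretches hold the NKG2 and Ly49 receptor genes, and Klrk1, Klra17 and Klra2 were their only tested members.

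**Figure D3:**
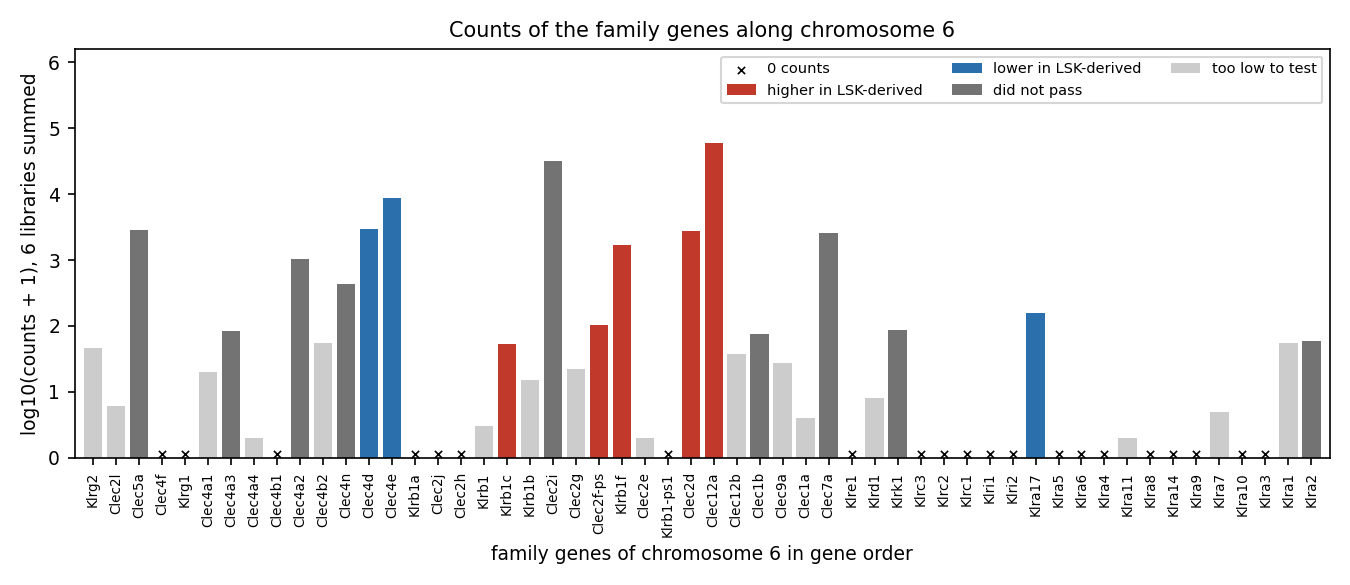
Counts of 54 members of chromosome 6 summed over the 6 libraries, as log10(counts + 1), in gene order without distances. Red bars are higher and blue bars lower in LSK-derived leukaemia, dark grey bars did not pass, light grey bars were too low to test and crosses mark 0 counts, which fill most of the Klrc and Klra genes on the right.

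The members that were too low to test included receptors known from other cells. Of the 9 with 10 or more counts, Clec4b2 and Klra1 had 54 each, Klrg2 46, Clec12b 37, Clec9a 26, Clec2g 21, Clec4a1 19, Clec3a 15 and Klrb1b 14. Clec4b2 had 9, 9 and 3 counts across LSK 44, LSK 45 and LSK 46, against 0, 3 and 30 in GMP 5, GMP 11 and GMP 19. Klra1, which encodes Ly49A, had 5, 27 and 7 counts across LSK 44, LSK 45 and LSK 46, against 4, 3 and 8 in GMP 5, GMP 11 and GMP 19. The library with the most counts was GMP 19 for Clec4b2 and LSK 45 for Klra1. Clec9a encodes DNGR-1, a marker of type 1 conventional dendritic cells, and 184 bases of its exons overlap those of Clec1b.

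Near-identical copies were counted low or at 0. At 80% protein identity, 10 members fell into 3 groups, Klra3, Klra5, Klra6, Klra8, Klra9 and Klra10, then Klrb1a and Klrb1c, then Klrc2 and Klrc3. A gene joined a group if it reached that identity with any gene in it. Members of a group can therefore be less alike, as Klra5 and Klra8 are at 71.1%. Of these 10 members, 9 had 0 counts in all libraries. Klra9 and Klra10 are 93.2% identical and Klrc2 and Klrc3 91.4% identical. Among the tested members, 12 of 22 share no 50-base stretch with another gene and 3 share at least 5%, Klrb1c, Clec10a and Clec4a2. Among 41 members that were not tested, 15 share at least 5% and 9 at least 20%, up to 39.8% for Klra10. The sources used here do not give how reads with several alignments were counted, and the part of shared sequence in the counts of 0 was not tested. With the copies of each group summed, 6 members were again higher and 3 lower, and with the copy groups left out 5 were higher and 3 lower.

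**Figure D4:**
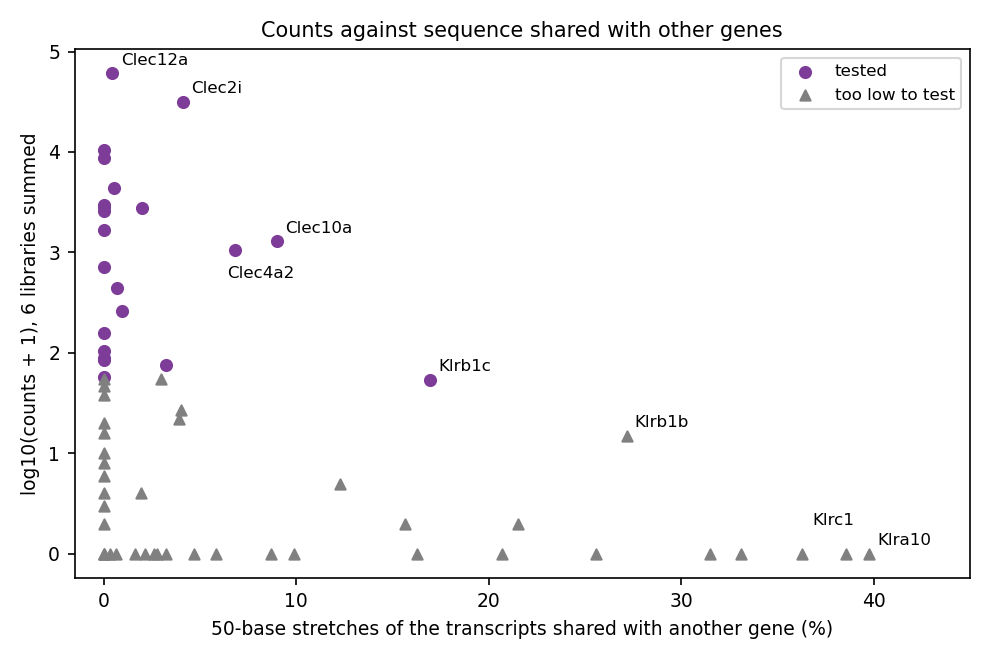
Counts of the members summed over the 6 libraries, as log10(counts + 1), against the percent of 50-base stretches of their transcripts found in another gene, with tested members as purple circles and members too low to test as grey triangles. No tested member lies beyond the 16.98% of Klrb1c, and the members with the most shared sequence, such as Klra10 at 39.8%, lie at 0 counts.

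Promoter letters were counted over the 49 members with a RefSeq promoter. The PU.1 letters were in all 3 lower members, in 2 of 4 higher members, in 7 of 12 that did not pass and in 18 of 30 that were not tested, against 28.3% of all 32851 promoters. For C/EBP the counts were 2 of 3 lower, 1 of 4 higher, 5 of 12 not passing and 7 of 30 not tested, against 10.8% of all promoters. RUNX letters were in 1 lower, 2 higher, 3 not passing and 8 untested members, against 16.8% of all promoters. GATA letters were in 0 lower, 1 higher, 1 not passing and 2 untested members, against 11.2%. AP-1 letters were in 0 lower, 1 higher, 4 not passing and 5 untested members, against 7.81%. A match is a run of letters and not a measured site.

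The receptors' signalling partners were a list of 30 genes, all tested, of which 3 were higher and 5 lower in LSK-derived leukaemia, with a median log2 fold change of -0.08. These counts are near the 11.8% of all tested genes that were higher and the 13.9% that were lower. Fcer1g, which encodes FcRγ, the adaptor of Mincle, MCL and Dectin-2, had 97.5 ± 14.2 CPM in LSK-derived libraries and 238 ± 20.0 CPM in GMP-derived libraries (SD, n = 3 each), a log2 fold change of -1.29 ± 0.12 with an adjusted p of 0.00108. It was lower along with Clec4e and Clec4d. Vav3, an exchange factor, was lower by a log2 fold change of -0.66 with an adjusted p of 0.00225, and Prkcd, a kinase that acts on Card9, by -0.63 with an adjusted p of 0.00270. Grb2, an adaptor, was higher at 0.46 with an adjusted p of 0.0144. Tyrobp, which encodes DAP12, the adaptor of MDL-1, had 263 ± 53.7 CPM in LSK-derived libraries and 357 ± 38.0 CPM in GMP-derived libraries, with an adjusted p of 0.0751. Syk, under its older symbol Sykb, had 202 ± 20.8 CPM in LSK-derived libraries and 235 ± 22.9 CPM in GMP-derived libraries, with an adjusted p of 0.171. The number called higher was 1 without LSK 44 or LSK 46 and 2 without GMP 5 or GMP 11. The number called lower was 3 without LSK 44, LSK 46 or GMP 19.

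Lectin-domain genes that the symbol rule leaves out were a list of 49, of which 18 were tested, 6 higher and 2 lower in LSK-derived leukaemia, with a median log2 fold change of -0.09, against 11.8% of all tested genes higher and 13.9% lower. Cd302, an endocytic lectin-like receptor gene, had 1.36 ± 0.277 CPM in LSK-derived libraries and 15.6 ± 5.37 CPM in GMP-derived libraries, a log2 fold change of -3.52 with an adjusted p of 0.00106. Cd72, a B cell co-receptor gene, had 4.401 ± 1.82 CPM in LSK-derived libraries and 0.214 ± 0.115 CPM in GMP-derived libraries, at 4.28 with an adjusted p of 0.00195. Layn was lower at an adjusted p of 0.0170 and Sele, which encodes E-selectin, higher at 0.0171. The number called higher was 1 without LSK 44 or LSK 46, 2 without GMP 11 and 3 without LSK 45, GMP 5 or GMP 19. The number called lower was 1 without LSK 44 or LSK 46 and 4 without GMP 11.

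Ligands of the NK complex receptors were a list of 18, of which 13 were found under their symbols and 8 tested, 2 of them higher and none lower, with a median log2 fold change of 0.39, against 11.8% of all tested genes higher and 13.9% lower. H2-T23 encodes Qa-1, the ligand of the CD94/NKG2A pair, and had 81.0 ± 13.5 CPM in LSK-derived libraries and 34.6 ± 5.60 CPM in GMP-derived libraries, a log2 fold change of 1.23 with an adjusted p of 0.00342. Its receptor genes were near 0, with 7 counts for Klrd1 and 0 for Klrc1. Cdh1 encodes E-cadherin, the ligand of KLRG1, and had 13.5 ± 10.2 CPM in LSK-derived libraries and 0.267 ± 0.146 CPM in GMP-derived libraries, a log2 fold change of 5.59 with an adjusted p of 0.00403, while Klrg1 itself had 0 counts.

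Within a group, the same libraries were often the highest or the lowest. LSK 45 was the highest of its group for 13 of the 22 tested members, against 38.1% of all tested genes, and LSK 46 the lowest for 11, against 30.2%. In the GMP-derived group GMP 19 was the highest for 14 members, against 35.8% of all tested genes, and GMP 5 the lowest for 16, against 37.3%. The median SD of log2(CPM + 0.5) over the tested members was 0.43 in LSK-derived libraries and 0.30 in GMP-derived libraries. Over all tested genes it was 0.13 in LSK-derived libraries and 0.15 in GMP-derived libraries. Of the marker lists not yet given, the 6 of basophils and mast cells summed to 46.2 to 48.5 CPM in LSK-derived libraries and 74.1 to 292 CPM in GMP-derived libraries, with none at 0 counts, Mcpt8 called higher and Hdc lower. The 4 eosinophil markers summed to 9.42 to 55.4 CPM in LSK-derived libraries and 2.58 to 8.32 CPM in GMP-derived libraries, with none at 0 counts and Epx and Prg2 called higher. The 5 B cell markers, 2 of them at 0 counts and Cd79b called higher, summed to 14.3 to 21.9 CPM in LSK-derived libraries and 3.61 to 7.75 CPM in GMP-derived libraries. The 8 endothelial and stromal markers, 1 of them at 0 counts and Pdgfrb called lower, summed to 189 to 330 CPM in LSK-derived libraries and 147 to 227 CPM in GMP-derived libraries. The part of these lists in the members' differences was not tested.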

How the data were processed

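RNA had been isolated with TRIzol and sequenced from TruSeq RNA libraries, per the labels' protocols. The deposited table holds unnormalized counts of reads for each gene symbol in the 6 libraries, without coordinates. The submitters' processing notes name the build mm9 and, with no role or order, the tools STAR 2.4, HTSeq 0.6.1 and DESeq2. Not given in the sources used here are the gene annotation, the strand setting and the treatment of reads with several alignments, so overlapping genes may have shared reads.

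These counts went into edgeR 4.0.16 under R 4.3.3 (filterByExpr, TMM, robust glmQLFit, glmQLFTest, no covariate) over 13406 genes, adjusted by the Benjamini-Hochberg method and called below 0.05. The test was checked on simulated data in which every gene had the same spread between libraries beyond sampling noise. That does not show how the test behaves for the members, whose median spread was larger than that of all tested genes. CPM is the count over the library's tested-gene total times its TMM factor, scaled to 1e6. The approximate SE is the size of the log2 fold change over the root of the F statistic, and can fall below counting error in genes with few counts. The ratio for Klrb1c divides the mean CPM of LSK-derived libraries by the pooled CPM of GMP-derived libraries. The pooled CPM uses raw totals without TMM, so the ratio is not the fold change of the test. The exact 95% interval of the ratio covers the counting error of the lower group.

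The members, the lists and the tests were chosen with earlier results of these data known. Named were all tested members, untested members with at least 10 counts, and up to 4 called genes per list by smallest p. Tyrobp, Syk, Mgl2, the receptors of named ligands and the sorting markers were added for their known roles, and the called markers after their values were seen.

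RefSeq matched 60 members by symbol and 4 by synonym. Near-identical copies were to be grouped by RefSeq proteins, which were not used here, so proteins translated from GENCODE M21 were aligned in their place (58 members had one). Exon lengths (63 members) and shared 50-base stretches also came from GENCODE M21. Promoters are RefSeq's on GRCm38.p6, another build than mm9. A promoter was given for 49 members, 19 of them tested, and not for Clec10a or Clec2f-ps. Replicate libraries differed beyond sampling noise in every pair. Alternatives were DESeq2 1.42.0, RLE and upper-quartile factors, no filter and a stricter one (minimum count 30), limma 3.58.1 voom without and with sample weights, a 1.5-fold threshold, each library left out, and copies summed or left out. Leaving out Clec16a and Klraq1 was chosen after seeing the data.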

Additional observations from a re-analysis of the deposited data

How the results depend on the processing

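The count of 6 higher members was 3 against a 1.5-fold change and 5 to 6 with single libraries left out, and the same with copies summed. The count of 3 lower members was 6 with DESeq2, 1 against 1.5-fold and 1 to 5 with single libraries left out, again the same with copies summed. Signalling partners called higher (3) numbered 0 against 1.5-fold and 1 to 4 in the leave-one-out fits, and those called lower (5) numbered 3 with upper-quartile factors, 1 against 1.5-fold and 3 to 5 in the leave-one-out fits. Other lectin-domain genes called higher (6) numbered 2 against 1.5-fold and 1 to 3 in the leave-one-out fits, and those called lower (2) numbered 4 with DESeq2, 1 against 1.5-fold and 1 to 4 in the leave-one-out fits. The cause of these changes was not tested. A leave-one-out fit changes both the number of libraries and which libraries are used, and cannot tell these apart. Over the values of single members, 306 kept their direction and side of the threshold, 18 lost it, 10 gained it and 10 changed sign. The log2 fold change of Clec2i (0.01) was -0.0073 with no filter, -0.058 with voom, -0.21 with voom weights, and -0.38 (without LSK 45) to 0.19 (without LSK 44) in the leave-one-out fits. That of Clec4a3 (0.60) was -0.037 (without LSK 45) to 1.29 (without GMP 19). That of Clec4n (-0.14) was 0.31 with voom, 0.23 with voom weights, and -0.67 (without LSK 45) to 1.36 (without GMP 19) in the leave-one-out fits. The stricter filter left no value for Clec1b, Clec2f-ps, Clec4a3, Klra17, Klra2, Klrb1c and Klrk1. RLE and upper-quartile factors moved the median of all genes by -0.002 and 0.03 on the log2 scale. No paired analysis was possible because the groups share no replicate number. Depth limits the members below about 0.180 CPM, which in LSK 44 is 3 counts.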
